A study of Mus musculus with 6 samples.

Results

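The genes described here were 10 targets and feedback regulators of the Wnt/beta-catenin pathway: Axin2, Nkd1, Rnf43, Znrf3, Notum, Sp5, Lgr4, Tcf7, Lef1 and Sox9. They were chosen by name, for their known place in the pathway, and were found in the count table through the mouse symbols of its Ensembl gene identifiers. They made up 10 of the 24190 genes in the table and 10 of the 14692 genes with enough counts to be tested. The samples were 6 cultures of MTO54, a mouse tumor organoid (MTO) line of AKP genotype, which carries a mutation in Apc among others and was derived from a primary tumor of a genetically engineered mouse. All 6 cultures shared this genotype, and the gene counts do not show the mutations themselves. In the control group, 3 cultures received fresh medium, and in the Folfiri group 3 cultures were given SN38 (100 nM) together with 5FU (50 μg/μl, as written in the protocol) for 2 days, starting 2 days after seeding. That length is the one in the labels and protocol, whereas a figure legend of the study has 4 days. 5FU blocks thymidylate synthesis, and SN38, the active form of irinotecan, inhibits topoisomerase I. Whether MTO54 is a single clone is not given in the sources used here, and the labels do not say whether the replicates came from separate passages, so p values measure the spread between these cultures.

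In the Wnt pathway, beta-catenin is kept low by a destruction complex that contains Apc and Axin proteins. When Wnt ligands bind Frizzled and Lrp receptors, or when Apc is lost, beta-catenin accumulates, enters the nucleus and activates transcription through DNA-binding proteins of the TCF/LEF family. Many genes switched on in this way feed back on the pathway, at the cell surface, in the cytoplasm or in the nucleus, and in intestinal epithelium the same program maintains stem cells in the crypt and is active in most colorectal tumors.

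The 10 genes did not move as a block. After Folfiri, 4 were higher (Sp5, Tcf7, Axin2 and Notum) and 6 were lower (Nkd1, Lgr4, Sox9, Lef1, Znrf3 and Rnf43), at an adjusted p under 0.05 in edgeR's quasi-likelihood test with Benjamini-Hochberg adjustment over all tested genes. The changes ran from a log2 fold change of 1.81 for Sp5 to -1.08 for Rnf43. In each of the 10 genes the 3 Folfiri cultures lay wholly above or wholly below the 3 controls. Changes were widespread in these cultures, and these counts have to be read against that background. Of all tested genes, 79.1% passed the same threshold, 40.3% being higher and 38.8% lower after Folfiri, and in 81.4% the groups did not overlap. The median log2 fold change of the 10 genes was -0.44, beside 0.02 over all tested genes. Their summed levels overlapped between the groups, at 1099 to 1188 CPM (read counts scaled to library size) in controls and 1038 to 1161 CPM after Folfiri.

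Counts on genes ranged from 22103591 to 30098210 per culture, and each of the 10 genes had at least 259 counts in every culture. Over all genes, control 1 and Folfiri 3 stood apart from the other cultures of their groups, with a chi-square per degree of freedom of 22.7 to 24.2 and 12.8 to 13.2, beside 3.85 and 3.72 between the others. Leaving out either of them kept the direction and the call of all 10 genes. Levels are CPM after TMM scaling, which corrects library sizes for differences in composition. When only total counts were used for scaling, the median of all tested genes moved from 0.02 to 0.30 on the log2 scale, and each of the 10 genes moved up by a similar amount. The directions of all 10 were kept, and the call for Nkd1 was lost. Epithelial markers such as Epcam, Cdh1, Krt8, Krt18 and Krt19 were abundant in all cultures, with a summed level over 8 markers of 5976 to 6945 CPM in controls and 4817 to 4991 CPM after Folfiri. Of these 8, 5 were lower, Cdx2 by the most (-1.53), Cdh1 was higher (0.21), and Krt18 and Vil1 did not pass. The sum of 8 proliferation genes was 3027 to 3453 CPM in controls and 1813 to 1855 CPM after Folfiri. Of the 8, 5 were lower, among them Top2a and Mki67, which fell by 1.65 and 1.58 on the log2 scale. Both had the highest CPM of the 8 in controls, before any division by length. Mcm2 and Mcm5, which encode parts of the replicative helicase, were higher (1.31 and 0.34), and Pcna did not pass. The part of these shifts in the results below was not tested, and in bulk RNA fewer cells of a type cannot be told apart from less RNA per cell.

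**Figure D1:**
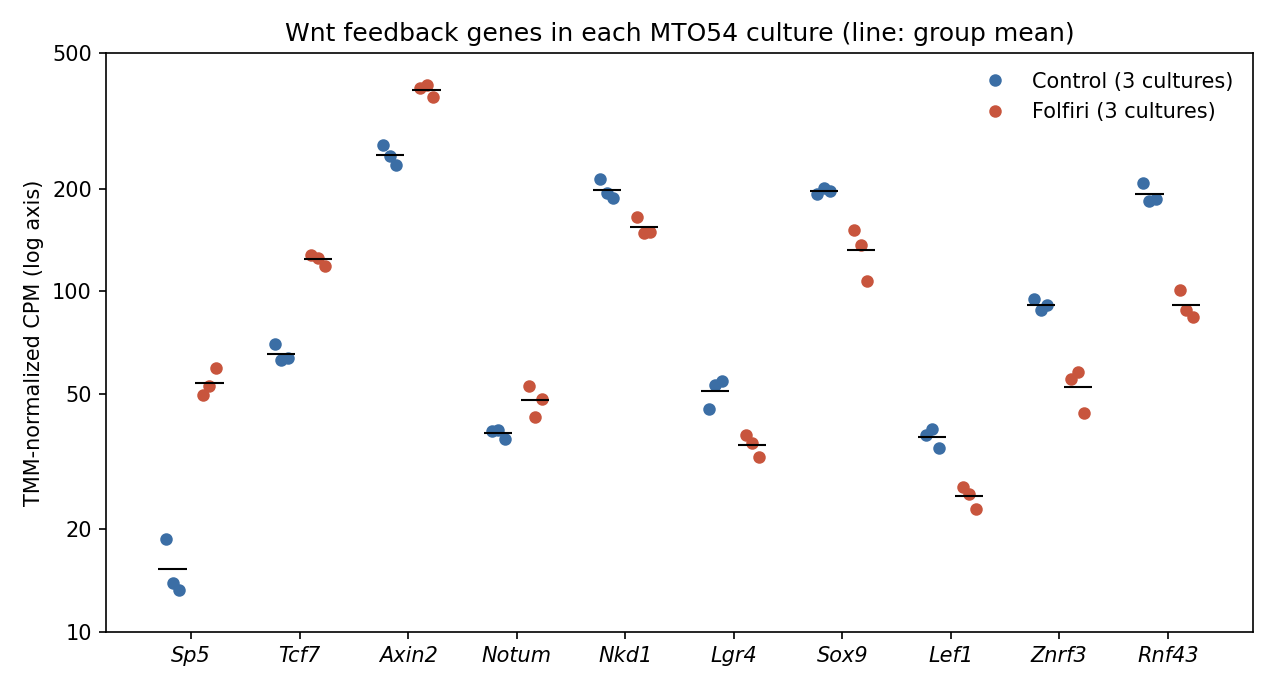
TMM-normalized CPM (log axis) of the 10 genes in each culture, with control cultures in blue, Folfiri cultures in red and a line at each group's mean. Sp5, Tcf7, Axin2 and Notum lie higher in all 3 Folfiri cultures and the other 6 genes lie lower in all 3.

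At the cell surface, Rnf43 and Znrf3 encode related E3 ubiquitin ligases that remove Frizzled receptors, and both were lower after Folfiri. Rnf43 (ENSMUSG00000034177) lies on chromosome 11 of GRCm38, chr11:87662722-87735539 on the plus strand. Its level was 208, 183 and 187 CPM in the controls and 100.5, 88.0 and 84.0 CPM in the Folfiri cultures. The highest treated culture was thus far under the lowest control. The group means were 193 ± 13.3 and 90.8 ± 8.63 CPM (SD, n = 3 each), and the log2 fold change was -1.08 (SE 0.09, adjusted p = 9.29e-07, edgeR). This was the largest decrease of the 10 genes. Znrf3 (ENSMUSG00000041961, chr11:5276324-5444847, minus strand) stood at 94.7, 88.1 and 91.3 CPM in controls and at 55.2, 58.1 and 44.0 CPM after Folfiri. The controls were tightly grouped, the third Folfiri culture was the lowest, and the groups were well apart. The log2 fold change was -0.80 (SE 0.10, adjusted p = 2.82e-05, edgeR), with means of 91.4 ± 3.27 and 52.4 ± 7.44 CPM (SD, n = 3 each).

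The log2 ratio of Rnf43 to Znrf3 within a culture, which does not depend on library scaling, was 1.13, 1.06 and 1.03 in controls and 0.86, 0.60 and 0.93 after Folfiri. All treated values lay under all control values, by a mean difference of -0.28, with differences between single cultures from -0.53 to -0.10. In an exact two-sided permutation test p was 0.1, the smallest that 3 against 3 can give, and 0.12 after Benjamini-Hochberg adjustment over the 6 gene pairs compared, so this difference did not pass the threshold. Without Folfiri 2 it was -0.18.

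Lgr4 encodes a receptor for R-spondins, secreted proteins that counter Rnf43 and Znrf3 and so keep Frizzled at the membrane. Lgr4 (ENSMUSG00000050199, chr2:109917647-110014257, plus strand) was measured at 45.2, 53.1 and 54.6 CPM in controls and at 37.7, 35.9 and 32.6 CPM in Folfiri cultures. The groups were separate, with the first control nearest to the treated cultures. Its log2 fold change was -0.52 (SE 0.09, adjusted p = 0.000412, edgeR), from 51.0 ± 5.03 to 35.4 ± 2.59 CPM (SD, n = 3 each). Its paralog Lgr5, the marker of crypt base stem cells, was much lower after Folfiri, with a log2 fold change of -2.52 (adjusted p = 3.81e-08, edgeR). The log2 ratio of Lgr4 to Lgr5 accordingly went from 1.28 ± 0.25 to 3.26 ± 0.27 (SD, n = 3 each), with every Folfiri culture above every control (exact two-sided permutation test, p = 0.1, adjusted p = 0.12 over 6 pairs).

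Notum encodes a secreted enzyme that takes the lipid off Wnt ligands and thereby inactivates them. Notum (ENSMUSG00000042988, chr11:120653788-120661175, minus strand) showed the smallest change of the 10 genes with TMM scaling. It was read at 38.9, 39.2 and 36.7 CPM in controls and at 52.8, 42.8 and 48.2 CPM after Folfiri. The groups did not touch, but the second Folfiri culture was only a little above the highest control. The log2 fold change was 0.32 (SE 0.09, adjusted p = 0.00662, edgeR), from 38.3 ± 1.36 to 48.0 ± 5.01 CPM (SD, n = 3 each). The antisense transcripts Notumos and Myadml2os share 708 and 210 exonic bases with Notum in GENCODE vM21, and neither had a row in the count table. That table holds no gene with 0 counts in all cultures, so a missing row can mean that no reads were assigned. Since the library kit does not mark strand, their reads from the shared bases cannot be told apart from Notum reads. Of the 50-base words of Notum's longest transcript, 31.7% also occur in other transcripts.

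In the cytoplasm, Axin2 encodes a scaffold of the destruction complex and is widely used as a readout of beta-catenin activity, and Nkd1 encodes a protein that binds Dishevelled and dampens the signal. They moved in opposite directions. Axin2 (ENSMUSG00000000142, chr11:108920349-108950783, plus strand) was at 268, 250.02 and 235 CPM in controls and at 394, 403 and 372 CPM after Folfiri. All treated cultures lay more than 100 CPM above the highest control, and the spread within groups was small. The log2 fold change was 0.63 (SE 0.08, adjusted p = 2.24e-05, edgeR), from 251 ± 16.6 to 390 ± 16.1 CPM (SD, n = 3 each). The antisense transcript Gm11670, without a row in the count table, shares 209 exonic bases with Axin2. Nkd1 (ENSMUSG00000031661, chr8:88521354-88594884, plus strand) was at 213, 194 and 187 CPM in controls and at 165, 149 and 149 CPM after Folfiri. The groups were separate, with the first Folfiri culture nearest to the controls. The log2 fold change was -0.36 (SE 0.08, adjusted p = 0.00142, edgeR), from 198 ± 13.6 to 154 ± 9.50 CPM (SD, n = 3 each). With scaling by total counts only it was -0.09 and no longer passed (adjusted p = 0.398, edgeR).

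The paralogs of these genes were compared in the same way. Axin1, the constitutive counterpart of Axin2, was also higher, from 68.6 ± 4.96 to 99.2 ± 2.01 CPM (SD, n = 3 each), with a log2 fold change of 0.53 (adjusted p = 5.85e-05, edgeR). The log2 ratio of Axin2 to Axin1 was 2.04, 1.75 and 1.82 in controls and 2.02, 2.01 and 1.88 after Folfiri. The groups overlapped, and the mean difference was 0.10, with differences between single cultures from -0.16 to 0.27 (exact two-sided permutation test, p = 0.4, adjusted p = 0.4 over 6 pairs). The mean difference was 0.19 without control 1 and 0.040 without control 2. Nkd2 had 0 counts in each control and 7 to 11 counts in each Folfiri culture, and was too low to be tested. Its ratio to Nkd1 therefore depends on the count added before the logarithm and is not interpreted.

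In the nucleus, Tcf7 and Lef1 encode DNA-binding partners of beta-catenin that are also known from T cell development, and they too moved apart. Tcf7 (ENSMUSG00000000782, chr11:52252371-52283014, minus strand) was at 69.7, 62.9 and 63.5 CPM in controls and at 128, 125 and 119 CPM after Folfiri. The treated values were close together and far above the controls. Its log2 fold change was 0.92 (SE 0.07, adjusted p = 8.18e-07, edgeR), from 65.4 ± 3.79 to 124 ± 4.75 CPM (SD, n = 3 each). Lef1 (ENSMUSG00000027985, chr3:131110471-131224356, plus strand) was at 37.8, 39.4 and 34.7 CPM in controls and at 26.6, 25.4 and 23.0 CPM after Folfiri. Here all treated cultures were lower than all controls. The log2 fold change was -0.58 (SE 0.09, adjusted p = 0.000118, edgeR), from 37.3 ± 2.36 to 25.0 ± 1.84 CPM (SD, n = 3 each). The antisense transcript Gm43352 shares 1208 exonic bases with Lef1 and also had no row in the table. Both genes produce proteins with and without the part that binds beta-catenin, and gene counts do not separate these forms.

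Ratios of Tcf7 to other TCF/LEF genes, which are free of library scaling, were higher in every Folfiri culture than in every control. The log2 ratio of Tcf7 to Lef1 was 0.88, 0.68 and 0.87 in controls and 2.26, 2.30 and 2.36 in Folfiri cultures. Each treated ratio exceeded each control ratio by 1.38 to 1.69, with a mean difference of 1.50. The ratio of Tcf7 to Tcf7l2, the main TCF gene of intestinal epithelium, was also higher in each Folfiri culture, going from 0.73 ± 0.02 to 2.17 ± 0.10 (SD, n = 3 each), a difference of 1.43. Both comparisons reached the smallest p of the exact two-sided permutation test, p = 0.1, with an adjusted p of 0.12 over 6 pairs. Tcf7l2 itself had a log2 fold change of -0.51 (adjusted p = 0.000475, edgeR), which fell short of the threshold with scaling by total counts only. T cell markers were near 0 in these cultures, the summed level of 7 markers present in the table being 0.640 to 0.874 CPM in controls and 0.394 to 0.738 CPM after Folfiri, and none of the 7 had enough counts to be tested.

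**Figure D2:**
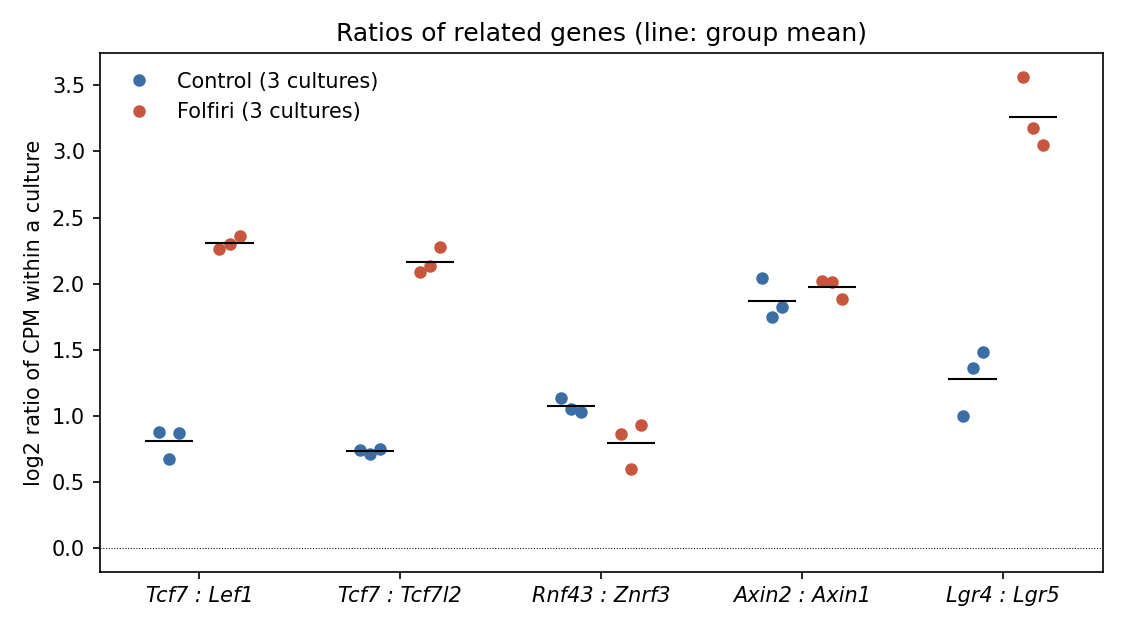
Log2 ratio of CPM of paired genes within each culture, with controls in blue, Folfiri in red and a line at each group's mean. Of the 5 pairs plotted, Nkd1 to Nkd2 being left out because Nkd2 had 0 counts in controls, 4 have separate groups and Axin2 to Axin1 overlaps.

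Sp5 and Sox9 encode transcription factors outside the TCF/LEF family. Sp5, a zinc finger protein of the Sp family and a known direct target of beta-catenin, showed the largest increase. Sp5 (ENSMUSG00000075304, chr2:70474923-70477729, plus strand) was at 18.8, 14.0 and 13.3 CPM in controls and at 49.5, 52.8 and 59.5 CPM after Folfiri. The first control was the highest of its group, and every treated culture was still well above it. The means were 15.3 ± 2.98 and 53.9 ± 5.13 CPM (SD, n = 3 each), a 3.50-fold increase, or 1.81 on the log2 scale (SE 0.13, adjusted p = 4.6e-07, edgeR). Sox9, a regulator of crypt progenitors and Paneth cells, was lower. Sox9 (ENSMUSG00000000567, chr11:112782224-112787760, plus strand) was at 193, 201 and 196 CPM in controls and at 151, 137 and 107 CPM after Folfiri. The controls agreed closely, at a coefficient of variation of 2.01%, whereas the treated cultures were the most scattered of the 10 genes, at 17.0%. The log2 fold change was -0.58 (SE 0.11, adjusted p = 0.000596, edgeR), from 197 ± 3.96 to 132 ± 22.4 CPM (SD, n = 3 each). Of 7 Paneth cell markers, 4 were in the table and 2 were tested, Pla2g2a (-1.97) and Itln1 (-0.72), both lower. They make up nearly all of the marker sum of 28.3 to 29.1 CPM in controls and 8.55 to 11.5 CPM after Folfiri, since Ang4 and Defa24 had at most 2 counts in any culture. Goblet cell markers moved as well, with 3 of 4 tested lower and Clca1 higher. Their sum was 91.0 to 95.1 CPM in controls and 24.5 to 26.7 CPM after Folfiri. In controls Agr2 and Fcgbp made up most of it, at means of 54.4 and 36.4 CPM. Atoh1, Spdef and Tff3 had at most 5 counts in any culture. The part of either cell type in the Sox9 result was not tested.

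**Figure D3:**
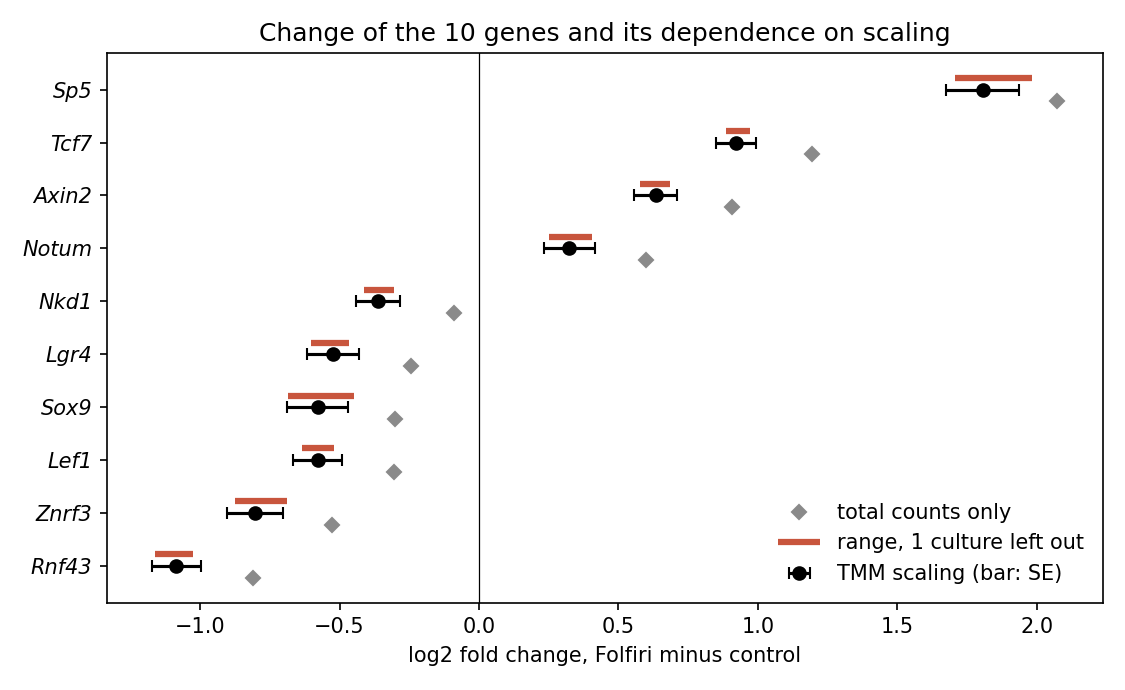
Log2 fold change, Folfiri minus control, of each gene with TMM scaling (black, bar: SE), its range when 1 culture was left out (red) and its value with total counts only (grey). No gene crosses 0 under these settings, and Nkd1 comes nearest at -0.09.

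To show the DNA before some of these genes, windows of 300 bases around annotated starts (250 before and 50 after, RefSeq on GRCm38.p6) were searched on both strands for 7-letter words that TCF/LEF proteins are known to prefer. The core word was ATCAAAG, its variants being TTCAAAG as well as AACAAAG and also TACAAAG. Of all 32851 windows in the promoter table, 16.9% held at least 1 word. The table had 12 windows for 7 of the 10 genes and none for Znrf3, Notum and Sox9. Of the 12 windows, 2 held a word, the single Sp5 window with 2 words and 1 of 4 Lef1 windows with 1. The sequences shown, the 250 bases before each start, 5′ to 3′ on the gene's strand, are those with a word, and those of Axin2, which rose, and Lgr4, which fell, as contrasts without a word. The Sp5 sequence is chr2:70474673-70474922, that of Axin2 chr11:108920099-108920348 and that of Lgr4 chr2:109917397-109917646. The Lef1 sequence, chr3:131156044-131156293, lies before an annotated start inside the gene. Capitals mark the words.
Sp5: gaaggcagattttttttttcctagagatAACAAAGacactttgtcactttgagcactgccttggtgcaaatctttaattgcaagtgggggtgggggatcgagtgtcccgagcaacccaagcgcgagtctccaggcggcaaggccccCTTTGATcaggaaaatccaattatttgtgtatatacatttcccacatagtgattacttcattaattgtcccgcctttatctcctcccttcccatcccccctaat
Lef1, internal start: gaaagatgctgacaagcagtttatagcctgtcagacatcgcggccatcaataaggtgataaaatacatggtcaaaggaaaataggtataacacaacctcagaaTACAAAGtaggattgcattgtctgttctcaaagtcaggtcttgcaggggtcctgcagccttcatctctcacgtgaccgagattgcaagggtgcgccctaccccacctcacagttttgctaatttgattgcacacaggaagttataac
Axin2: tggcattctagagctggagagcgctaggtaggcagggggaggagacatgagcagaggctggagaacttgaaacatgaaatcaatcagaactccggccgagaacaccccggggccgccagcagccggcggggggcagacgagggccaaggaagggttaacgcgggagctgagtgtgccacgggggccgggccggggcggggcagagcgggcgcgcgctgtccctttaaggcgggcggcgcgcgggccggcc
Lgr4: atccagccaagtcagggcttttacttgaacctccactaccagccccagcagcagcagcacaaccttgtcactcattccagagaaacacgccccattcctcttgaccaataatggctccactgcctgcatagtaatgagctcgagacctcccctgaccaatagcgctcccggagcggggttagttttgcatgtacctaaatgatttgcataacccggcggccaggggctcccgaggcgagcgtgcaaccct
A match is a description of the letters and not a binding site, and a window without a match says nothing about sites elsewhere, such as the introns of Axin2. With 2 of 12 windows, the share among these genes was near that of all windows, and nothing is read from it.

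Levels were also compared between the 10 genes after division by exonic length. In controls Sox9, Axin2 and Nkd1 were the highest, at 47.6, 45.6 and 43.5 CPM per kb, and neighbours among the 3 overlapped between cultures. Rnf43 at 29.4, Tcf7 at 24.9, Notum at 15.9 and Znrf3 at 11.6 CPM per kb followed without overlap. Lgr4 and Sp5 overlapped at 8.66 and 7.31 CPM per kb, and Lef1 was lowest at 4.24 CPM per kb. After Folfiri the order had changed. Axin2 at 70.8 and Tcf7 at 47.2 CPM per kb stood alone at the top. Nkd1, Sox9 and Sp5 came next at 33.9, 31.9 and 25.7 CPM per kb, each overlapping with its neighbour. Notum at 19.9 CPM per kb now lay above Rnf43 at 13.8 CPM per kb. Znrf3 and Lgr4 overlapped at 6.64 and 6.02 CPM per kb, and Lef1 was again lowest at 2.84 CPM per kb. The order depends on the length used. With the longest transcript in place of all exons, Axin2 led in controls as well, at 59.0 against 47.6 CPM per kb for Sox9, and Sp5 at 7.31 CPM per kb was under Lef1 at 10.2 CPM per kb. After Folfiri, Notum at 21.7 and Rnf43 at 21.1 CPM per kb then differed by less than their SD.

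**Figure D4:**
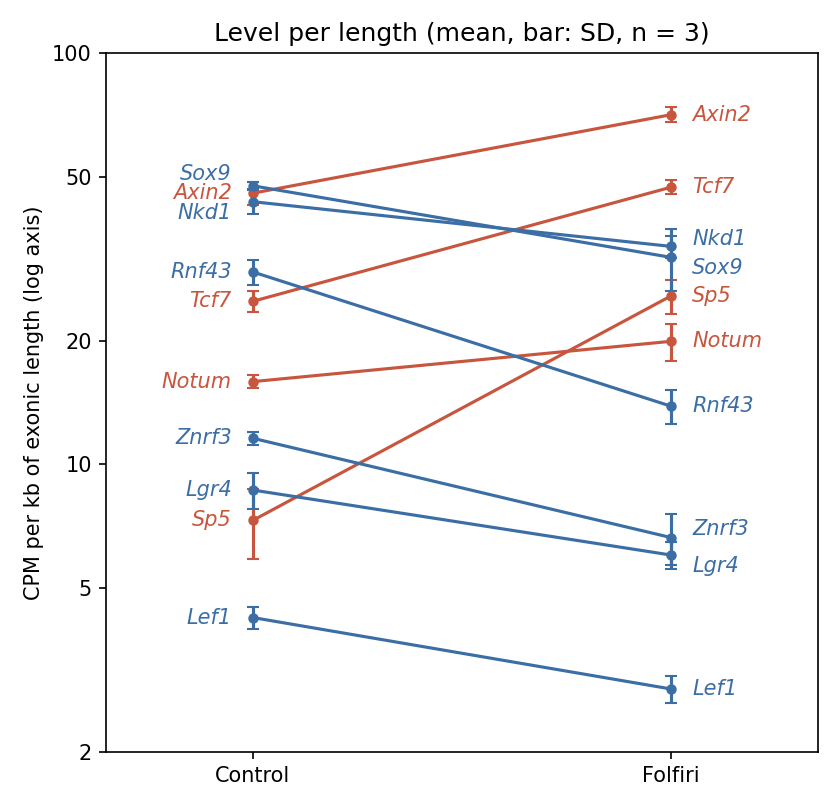
Level per length (CPM per kb of exonic length, log axis, mean and SD of 3 cultures) in control and Folfiri cultures, with genes that rose in red and genes that fell in blue. Axin2 and Tcf7 end at the top, at 70.8 and 47.2 CPM per kb, and Sp5 climbs past Notum, Rnf43, Znrf3 and Lgr4.

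The genes shared some features that had played no part in their choice. Of the 10, 6 lie on chromosome 11 (Axin2, Rnf43, Znrf3, Notum, Tcf7 and Sox9), which held 7.93% of tested genes and had a median log2 fold change of 0.09. Among these 6, 3 were higher and 3 were lower. By genomic span, Nkd1, Rnf43, Znrf3, Lgr4 and Lef1 all belong to the quintile of tested genes with the longest spans, over 60.3 kb, and all 5 were lower. In that quintile 49.0% of all tested genes were lower and 29.5% higher, with a median log2 fold change of -0.23. Axin2 and Tcf7, with spans of 30.4 and 30.6 kb, fell in a quintile with a median of 0.11. Sp5, of 2.81 kb, rose although its quintile, the shortest, had a median of -0.35. In the quintile of Notum and Sox9, of 7.39 and 5.54 kb, the median was 0.25, and Notum was higher and Sox9 lower. The part of span in the changes was not tested.

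Across the 6 cultures, the genes with a profile nearest to that of Axin2 were Gmeb1, Eya3, Nploc4, Vkorc1l1 and Cep83. They were picked by the root mean square difference of centred log2 CPM, which was 0.0193 to 0.0300, among 9474 genes averaging 10 CPM or more. A similar fold change follows from this choice and is no separate result. Gmeb1, for example, had a log2 fold change of 0.64, beside 0.63 for Axin2.

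The remainder of the pathway was examined through lists drawn up from general knowledge. Their counts stand beside the 40.3% of all tested genes that were higher and the 38.8% that were lower, and shares near these are no result about a list. Of 20 other beta-catenin targets, 18 were tested, 4 being higher and 10 lower, with a median log2 fold change of -0.52. The strongest increases were those of Ccnd1, which encodes cyclin D1 (2.32), the transcription factor gene Myc (1.77) and Cdca7 (1.33), and the strongest decreases those of the receptor gene Ephb2 (-2.65), Lgr5 (-2.52) and the stem cell gene Smoc2 (-2.46). Exons of Ccnd1 overlap those of a gene on the other strand, LTO1. Such overlaps also exist for other genes named below, among them Fzd5, Dvl2, Ctnnb1 and Ctnnbip1. Ephb2, Lgr5 and Smoc2 were named because their decreases were the largest of the list, and none of the 10 genes fell as far. The other targets called lower ran from -0.93 (Fgf20) to -0.45 (Tnfrsf19). Rnf43 (-1.08) fell by more than these, and Znrf3, Lgr4 and Sox9 were within their range. Sp5 was between Ccnd1 and Myc.

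Of 25 genes for ligands and their secretion, 13 were tested, 3 being higher and 4 lower, with a median of -0.03. Porcn, which encodes the enzyme that adds the lipid Notum removes, fell by 2.24 on the log2 scale, and Wls, the carrier of Wnt ligands to the surface, fell by 0.95. Wnt11 fell by 2.16 and Wnt6 rose by 1.70 on the same scale. Wnt2b and Wnt10a were called higher from at most 4 and 6 counts in any control. Of the 16 receptor genes, all were tested, 6 being higher and 5 lower, with a median of -0.24. Among the Frizzled genes, whose products Rnf43 and Znrf3 remove, 4 of 10 were higher, Fzd8 (1.64), Fzd6 (1.63), Fzd10 (1.38) and Fzd1 (0.67), and 4 lower, Fzd7 (-1.41), Fzd5 (-0.99), Fzd4 (-0.67) and Fzd3 (-0.41). The groups overlapped for Fzd1, whose call was lost when any culture but control 1 was left out and with DESeq2's Wald test. Its log2 fold change ran from 0.47 to 1.15 when 1 culture was left out. Fzd3 did not pass with total counts only. The co-receptor gene Lrp5 was lower as well (-1.31), and Lrp6, the other co-receptor gene, did not pass (-0.18, adjusted p = 0.0973, edgeR). Of 14 secreted inhibitors, 4 were tested. Dkk4 (1.50), Wif1 (0.36) and Dkk2 (0.34, groups overlapping) were higher and Apcdd1 (-0.36) lower, with a median of 0.35. Dkk4, with at most 17 counts in any control, was at 2.31 without control 1, and Apcdd1 did not pass with total counts only (-0.080). The count of 4 was 2 when control 2, Folfiri 1 or Folfiri 2 was left out.

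Of 18 genes of the destruction complex and signal transduction, all were tested, 6 being higher and 5 lower, with a median of 0.13. These 11 calls became 16 with total counts only, 14 without control 1 and 13 with upper quartile scaling. Of the Dishevelled genes, Dvl3 (0.79) and Dvl1 (0.71) were higher and Dvl2 (-0.52) lower. Csnk1a1 (-0.76) and Btrc (-0.95), which help mark beta-catenin for destruction, and the tankyrase gene Tnks2 (-0.64) were lower. Apc2, at most 4 counts in any control, had a fitted log2 fold change of 4.71. Apc itself had means of 91.6 ± 16.1 and 106 ± 10.1 CPM (SD, n = 3 each) and a log2 fold change of 0.21 (adjusted p = 0.133, edgeR), and it passed without control 1 (0.36) and with total counts only (0.47). Ctnnb1, which encodes beta-catenin, had means of 603 ± 10.1 and 639 ± 6.16 CPM and a log2 fold change of 0.08 (adjusted p = 0.304, edgeR), or 0.36 and past the threshold with total counts only. Of 13 nuclear cofactors, 12 were tested, 6 being higher and 6 lower, with a median of -0.03. Ctnnbip1, which encodes an inhibitor of the contact between beta-catenin and TCF (1.31), Pygo2 (0.82) and the corepressor gene Tle4 (0.68) were higher. Tcf7l1 (-1.41) and the corepressor genes Tle1 (-1.28) and Tle2 (-1.10) were lower.

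**Figure D5:**
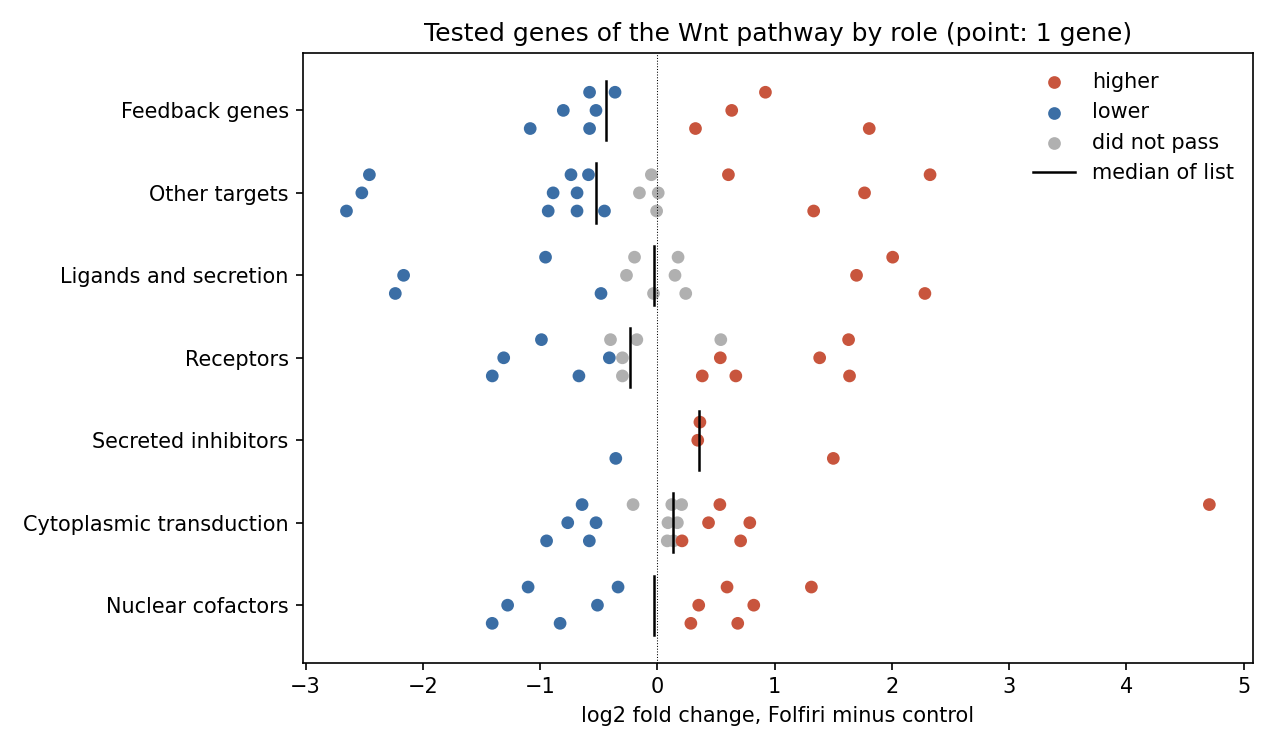
Log2 fold change, Folfiri minus control, of each tested gene of the Wnt pathway, arranged by role, with higher calls in red, lower calls in blue, genes that did not pass in grey and a line at each list's median. Every list holds genes of both directions, and the list medians run from -0.52 for other targets to 0.35 for secreted inhibitors.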

How the data were processed

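RNA of 3 control and 3 Folfiri cultures was sequenced from poly(A)-selected, non-directional libraries. The authors aligned reads to mm10 (GRCm38) with STAR 2.5.2, obtained gene counts with Rsubread and deposited these raw counts. Whether counting used strand is not given in the sources used here. The study tested treatment with DESeq2. Identifiers were matched to symbols for 24124 of 24190 genes, and positions and lengths came from GENCODE vM21 on GRCm38 for 24168.

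From these counts, genes were filtered with edgeR 4.0.16 defaults in R 4.3.3, scaled by TMM and tested with its quasi-likelihood F test at a Benjamini-Hochberg adjusted p of 0.05, with treatment as the only term. Named genes were the 10 members, both genes of each pair, up to 3 genes per direction in each pathway list with the largest change and separate groups, Apc, Ctnnb1 and Mki67, and the 5 genes most like Axin2. Some other genes covered by the rule are not reported here. Other genes of the lists that the text names, markers included, were named after their values were seen. The members, lists and tests were chosen with earlier results of these data known. Ratios used a prior count of 2. The steps were also tried on simulated data. No result of that trial is given here, and nothing about the choice of scaling is read from it. Replicates were compared by a chi-square of their counts over genes, and no pair agreed within counting noise. Counting intervals and floors cover counting error only. Alternatives were other scalings and filters, DESeq2 1.42.0, the replicate number as a block, and each culture left out in turn.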

Additional observations from a re-analysis of the deposited data

How the results depend on the processing

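Over 13 alternatives, all 10 feedback genes kept their direction in each fit, and 129 of 130 checks kept the call as well. The exception was Nkd1 with total counts only (-0.09). That scaling leaves out the TMM factors, which were 0.880 to 0.966 in controls and 1.10 to 1.11 after Folfiri. It moved the median log2 fold change of the 10 genes from -0.44 to -0.17 and that of all tested genes from 0.02 to 0.30, and the share of calls that were higher from 51.0% to 63.3%. It turned the sign of 8 genes that had no call, with values of 0.22 for Cd44 and 0.27 for Ephb3, which then passed, and of 0.23 for Wnt5b, 0.12 for Slc12a2, 0.10 for Lrp6, 0.074 for Wnt3, 0.073 for Tnks and 0.010 for Wnt7a, which did not. Upper quartile scaling gave -0.39 for the 10 genes and 0.076 for all tested genes, and without a filter on low counts the latter was 0.27. Leaving out 1 culture, the number of genes called over the table was 11021 to 12312, beside 11623 with all, and calls among secreted inhibitors were 2 to 3, beside 4 with all, since Dkk2, Wif1 or both did not pass. The Nkd1 to Nkd2 difference was -2.70 with a prior count of 2 and -4.47 with 0.5. For the 87 other genes examined, 1054 of 1125 checks kept direction and call, 25 lost a call, 22 gained one and 24 changed sign, all of these in genes without a call. Beside the 8 above, they were Cd44 (0.0037), Ephb3 (0.049) and Wnt5b (0.020) with upper quartile scaling, Ephb3 (0.0092) with a mean of at least 1 CPM, Sox4 (-0.021) without a filter and Wnt5b (0.012) with the replicate block. Leaving out 1 culture gave ranges across 0 for Amer1 (-0.019 to 0.29), Cd44 (-0.10 to 0.026), Ephb3 (-0.036 to 0.027), Sox4 (-0.079 to 0.12) and Wnt5b (-0.21 to 0.30). Replicate numbers showed no sign of pairing the cultures, though the counts cannot exclude a shared passage or batch. The deviations of same-numbered cultures correlated at 0.03, -0.12 and 0.04, and not every culture correlated best with its own number. With the replicate number as a block, 11499 genes were called, and the calls of all 10 feedback genes were kept. Depth was not limiting for the 10 genes, but 10 of 14 secreted inhibitor genes and 11 of the 24 ligand genes in the table had too few counts to be tested.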
